A study of Mus musculus with 24 samples.

Results

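The genes described here encode the machinery with which a cell degrades its own and its swallowed material: 13 lysosomal hydrolases, 6 other proteins of the lysosomal lumen and membrane, 4 subunits of the proton pump V-ATPase, the 3 transcription factors Tfeb, Tfe3 and Mitf, and 9 autophagy genes. They were chosen by name, as a list of 35 mouse symbols paired with the Ensembl identifiers in the count tables. All 35 were found among the 31062 features of the tables, and all 35 passed the filter on low counts that left 14622 genes for testing.

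Lysosomes are acidic organelles in which hydrolases take apart proteins, lipids, glycans and glycogen, and the V-ATPase keeps them acidic. Macroautophagy feeds them: the kinase ULK1 and the Beclin 1 lipid kinase complex start a membrane around the cargo, LC3 and GABARAP proteins are coupled to that membrane, cargo receptors such as p62 (the product of Sqstm1) bind both, and the finished vesicle fuses with a lysosome. TFEB, TFE3 and MITF form the MiT/TFE family, which binds promoters of many lysosomal and autophagy genes at sites built on the letters CACGTG. Their activity is set largely by phosphorylation, much of it by the kinase complex mTORC1, and by entry into the nucleus, which transcript levels do not report. Autophagy has been described in epithelial cells that lose contact with their matrix, and ovarian cancer cells live detached when they spread through the fluid of the abdomen. The transcript of a gene such as Sqstm1, whose protein is itself degraded by autophagy, is no measure of autophagic flux.

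Poly-A RNA was sequenced from ID8 p53-/- cells, a mouse ovarian cancer model, in 8 groups of 3 libraries. The genotypes were Ifngr1-KO, edited at the gene for the receptor chain that binds interferon-gamma (IFN-gamma), and the control labelled sgNTC, and every group shares the p53-/- background. Each genotype was grown for 48 h in ultra-low attachment (ULA) plates, which keep cells in suspension, or in adherent plates, with IFN-gamma (100 ng/ml) or PBS added for the final 24 h. The groups are therefore ULA Ifngr1-KO, adherent Ifngr1-KO, ULA sgNTC and adherent sgNTC, each with IFN-gamma and with PBS. Each genotype is 1 line, so a difference between the lines cannot be told apart from other differences between those cultures. Dead cells were taken out of the ULA wells only, per the labels, so the effect of culture and that step cannot be told apart. The 3 libraries of a group are labelled as biological replicates without further detail, and p-values measure the spread between such cultures.

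The libraries held 33494774 to 63154942 counts. The edited gene checked the labels: Ifngr1 ran from 13.3 to 17 CPM (counts with every library scaled to the same total) in the 12 Ifngr1-KO libraries and from 31.7 to 48.1 CPM in the 12 sgNTC libraries, a log2 fold change of -1.28 ± 0.08 (standard error, SE) in ULA and -1.46 ± 0.08 in adherent PBS cultures. Markers of the ovarian surface epithelium and mesothelium were high in all groups through Krt8, Krt18, Krt19, Msln and Wt1, while Epcam was at 0 in all. Of the 10 markers, 7 passed 1 CPM in sgNTC groups, 6 in ULA Ifngr1-KO and 5 in adherent Ifngr1-KO groups. In adherent PBS cultures, 1 of 9 tested markers was higher and 5 lower in Ifngr1-KO than in sgNTC cells (edgeR, adjusted p under 0.05). The lowest log2 fold change there was -7.81. In ULA PBS cultures 4 were higher and 2 lower, with a lowest value of -4.33. Such differences held for 43.9% of all tested genes in adherent and 50.1% in ULA PBS cultures. The summed level of the 10 markers was 4110 to 4470 CPM in ULA Ifngr1-KO, 1727 to 2027 CPM in adherent Ifngr1-KO, 2549 to 2848 CPM in ULA sgNTC and 1931 to 2196 CPM in adherent sgNTC libraries. Macrophages are rich in lysosomes, and 1 or 2 of their 10 markers passed 1 CPM in a group, with sums of 7.37 to 13.9 CPM per library, mostly from Cd14, with Adgre1, Ptprc and Lyz2 at 0 in most groups. The melanocyte markers Tyr and Tyrp1 were at 0 in all groups. Of 5 fibroblast and pericyte markers, 1 (Dcn) passed 1 CPM, Lum was at 0, and their sum was 89.7 to 99.1 CPM in ULA against 15.2 to 60.3 CPM in adherent libraries. Of 4 endothelial markers, 1 (Pecam1) passed 1 CPM in ULA groups and none did in adherent groups, with sums of at most 5.2 CPM. Lymphocyte markers summed to at most 0.241 CPM.

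Some of these genes carry the MiT/TFE letters next to their start. RefSeq promoter windows (GRCm38.p6, 250 bases before to 50 after the start) were matched for 31 of the 35 genes. CACGTG, which reads the same on both strands, lay in the windows of 10 of those 31 (32.3%), against 11.2% of the 10871 tested genes with a window. The longer TCACGTGA, which contains it and is also its own reverse complement, lay in 6 of 31 (19.4%), against 2.02% of the tested genes with a window. The longest form searched adds a G before and a C after TCACGTGA. It lay in 0 of 31, against 0.736% of the tested genes with a window. The holders of CACGTG were the hydrolase genes Ctsa, Ctsd, Ctsl, Gla, Glb1 and Gaa, the membrane protein genes Lamp1 and Mcoln1, and the pump genes Atp6v0d1 and Atp6v1a. No window of Tfeb, Tfe3 or Mitf, nor of the 7 autophagy genes with one, held these letters. The stretches below, 1 for each gene, are shown because they hold TCACGTGA or several sites and their genes differ in their response to ULA culture. Capitals mark CACGTG with a T before it and an A after it where these are present.
Gla, chrX:134601182-134601244, minus strand, with 2 sites: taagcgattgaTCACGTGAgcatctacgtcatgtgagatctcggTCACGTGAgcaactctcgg
Lamp1, chr8:13159088-13159160, plus strand, with 4 sites: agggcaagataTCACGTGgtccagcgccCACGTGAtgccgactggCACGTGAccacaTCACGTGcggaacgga
Mcoln1, chr8:3500436-3500491, plus strand, with 2 sites: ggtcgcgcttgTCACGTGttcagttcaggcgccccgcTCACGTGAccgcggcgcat
Ctsa, chr2:164833749-164833772, plus strand: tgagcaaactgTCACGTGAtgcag
Ctsd, chr7:142387908-142387937, minus strand: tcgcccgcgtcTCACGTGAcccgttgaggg
Atp6v0d1, chr8:105566050-105566079, minus strand: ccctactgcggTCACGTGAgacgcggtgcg
Atp6v1a, chr16:44139373-44139402, minus strand: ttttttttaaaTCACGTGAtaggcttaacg
Ctsa and Ctsd each had 2 sites, of which 1 is shown. A match describes the letters of the promoter window and no more.

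The 35 genes took a larger share of all counts in ULA than in adherent cultures. The share was 0.839 to 0.87% in ULA Ifngr1-KO against 0.66 to 0.68% in their adherent counterparts, and 0.799 to 0.831% in ULA sgNTC against 0.678 to 0.734% in adherent sgNTC libraries, with no overlap between the cultures in either line. Per kilobase of exon, Sqstm1 was the most abundant of the 35 in all 8 groups. In PBS it averaged 217 ± 7.07 CPM per kilobase in ULA against 460 ± 5.77 in adherent Ifngr1-KO cells, and 223 ± 10.9 in ULA against 565 ± 40.8 in adherent sgNTC cells (SD, n = 3 each). Lamp1 and Gabarap were among the next 3 in every group, with Ctsb or Ctsl beside them. Tfeb lay near the lower end at 2.06 to 4.82 CPM per kilobase, and Mitf and Gpnmb were below 1 in every group.

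ULA culture came with higher levels of most lysosomal enzyme genes in both lines, and with lower levels of Sqstm1, Tfe3 and Mitf. In Ifngr1-KO cells with IFN-gamma, 28 of the 35 genes rose and 4 fell, where 60.2% of all tested genes were called (29.3% up and 30.9% down). With PBS, 26 rose and 4 fell, where 60.7% of all tested genes were called (29.6% up and 31.1% down). In sgNTC cells with IFN-gamma, 23 rose and 8 fell, where 64.6% were called (32.6% up and 32.0% down), and with PBS 23 rose and 7 fell, where 64.6% were called (32.5% up and 32.1% down). A change is called, and described as a rise or fall, at an adjusted p under 0.05 in edgeR's quasi-likelihood test over all tested genes. The median log2 fold change of the 35 was 0.43 in Ifngr1-KO and 0.39 in sgNTC cells with IFN-gamma, and 0.45 in Ifngr1-KO and 0.44 in sgNTC cells in PBS, while that of all tested genes was -0.01, 0.05, 0.00 and 0.03 in the same order. So many genes differed between the cultures that a call alone says little here, and the direction and size carry the description. In bulk RNA, fewer cells of a kind and less RNA per cell cannot be told apart.

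A set of 22 genes rose in all 4 comparisons: Ctsa, Ctsb, Ctsd, Ctsz, Hexa, Gla, Glb1, Gaa, Gusb, Tpp1, Lipa, Grn, Npc2, Lamp1, Lamp2, Atp6v0a1, Tfeb, Map1lc3a, Map1lc3b, Gabarapl1, Gabarapl2 and Ulk1. Tfe3, Mitf and Sqstm1 fell in all 4, and Gpnmb was called in none. How many of all tested genes moved the same way in all 4 was not counted. That share cannot exceed 29.3% for rises and 30.9% for falls, the smallest shares of a single comparison. The comparisons with IFN-gamma and with PBS share no library, nor do those of the lines. Mitochondrially encoded genes moved with culture as well. They held 3.31 to 3.87% of counts in ULA Ifngr1-KO libraries against 1.96 to 2.45% in their adherent counterparts, and 5.09 to 6.12% in ULA sgNTC against 2.49 to 2.94% in adherent sgNTC libraries. The epithelial and mesothelial markers and Dcn above moved with culture too, and the part of these shifts in the results was not tested. Scaled by library totals alone, the median of all tested genes in sgNTC cells moved to 0.16 with IFN-gamma and 0.13 in PBS, and the calls among the 35 genes to 23 higher and 4 lower in both.

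**Figure D1:**
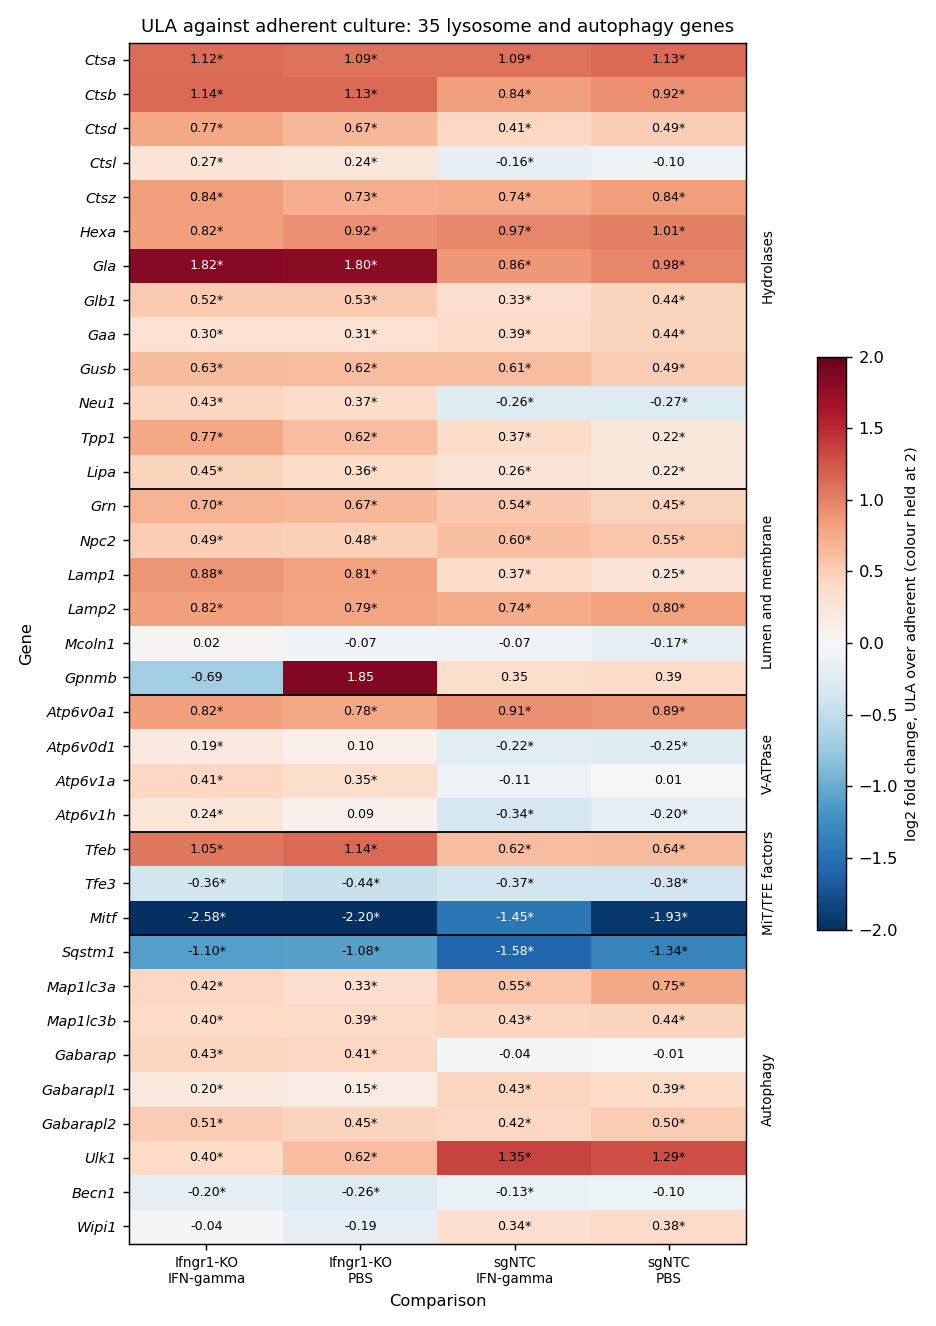
Log2 fold change of ULA over adherent culture for each of the 35 genes (down the page, grouped by role) in Ifngr1-KO and sgNTC cells with IFN-gamma or PBS (columns), with an asterisk at an adjusted p under 0.05 and colour held at 2. Most hydrolases are higher in ULA in all 4 columns, Sqstm1, Tfe3 and Mitf are lower in all 4, and Neu1 is higher in the Ifngr1-KO columns and lower in the sgNTC columns.

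The heat map of culture effects shows most hydrolases moving the same way. All 13 rose in Ifngr1-KO cells with IFN-gamma and in PBS (median log2 fold changes of 0.77 and 0.62). In sgNTC cells 11 rose and 2 fell with IFN-gamma, and 11 rose and 1 fell in PBS (medians of 0.41 and 0.49). Among all tested genes with IFN-gamma, 29.3% rose and 30.9% fell in Ifngr1-KO and 32.6% rose and 32.0% fell in sgNTC cells. In PBS these shares were 29.6% and 31.1% in Ifngr1-KO and 32.5% and 32.1% in sgNTC cells.

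Gla encodes alpha-galactosidase A, which trims terminal galactose from glycolipids and is deficient in Fabry disease (Ensembl ENSMUSG00000031266, chrX:134588149-134601125, minus strand, no overlapping gene). It had the largest called rise of the 35 genes in Ifngr1-KO cells. With IFN-gamma it had 100, 112 and 105 CPM in ULA against 31.2, 30.7 and 28.1 CPM in adherent Ifngr1-KO libraries, and in PBS 110, 107 and 109 CPM in ULA against 30.8, 33.7 and 29.2 CPM in adherent ones. The sgNTC values were 62.2, 56.8 and 62.5 CPM in ULA against 33.1, 33.2 and 33.5 CPM in adherent libraries with IFN-gamma, and 57, 66.5 and 68.9 CPM in ULA against 32, 35.2 and 30.3 CPM in adherent ones in PBS. The adherent levels of the lines lay close together, and the ULA libraries of Ifngr1-KO cells stood above all others. The log2 fold change was 1.82 ± 0.07 with IFN-gamma (adjusted p = 1.2e-21) and 1.80 ± 0.07 in PBS (adjusted p = 1.93e-21) in Ifngr1-KO cells, against 0.86 ± 0.07 (adjusted p = 7.02e-13) and 0.98 ± 0.07 (adjusted p = 2.09e-14) in sgNTC cells.

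Ctsb encodes cathepsin B, an abundant cysteine protease. It had 1212, 1265 and 1214 CPM in ULA against 563, 566 and 547 CPM in adherent Ifngr1-KO libraries with IFN-gamma, and 1207, 1234 and 1250 CPM against 563, 550 and 576 CPM in PBS. Among sgNTC libraries it had 868, 807 and 825 CPM in ULA against 478, 449 and 467 CPM in adherent libraries with IFN-gamma, and 904, 924 and 919 CPM against 473, 510 and 469 CPM in PBS. All ULA libraries lay above all adherent ones, and those of Ifngr1-KO cells were highest. The log2 fold change was 1.14 ± 0.05 with IFN-gamma and 1.13 ± 0.05 in PBS in Ifngr1-KO cells (adjusted p = 1.69e-21 and 2.28e-21), against 0.84 ± 0.04 and 0.92 ± 0.04 in sgNTC cells (adjusted p = 5.46e-18 and 4.63e-19). Fdft1 overlaps Ctsb on the opposite strand, and the counts take no account of strand.

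Ctsa and Hexa rose in both lines, and the lines' culture effects differed by 0.03 ± 0.07 with IFN-gamma and -0.04 ± 0.07 in PBS for Ctsa and by -0.16 ± 0.09 and -0.09 ± 0.09 for Hexa on the log2 scale, none of them called. With library totals alone the Hexa difference with IFN-gamma was called (-0.27, adjusted p = 0.0262). Ctsa encodes cathepsin A, the protein that protects beta-galactosidase and neuraminidase 1, and had log2 fold changes of 1.12 ± 0.05 with IFN-gamma and 1.09 ± 0.05 in PBS in Ifngr1-KO cells, against 1.09 ± 0.05 and 1.13 ± 0.05 in sgNTC cells. In PBS it had 298, 313 and 303 CPM in ULA against 150, 141 and 139 CPM in adherent Ifngr1-KO libraries, and 244, 263 and 266 CPM in ULA against 116, 123 and 114 CPM in adherent sgNTC libraries. Hexa, the alpha subunit of beta-hexosaminidase, which degrades a brain ganglioside and is deficient in Tay-Sachs disease, was lower in Ifngr1-KO than in sgNTC cells in both cultures. In PBS it had 132, 126 and 122 CPM in ULA against 63, 66.7 and 71.8 CPM in adherent Ifngr1-KO libraries, and 173, 166 and 165 CPM in ULA against 79.9, 91.6 and 79.6 CPM in adherent sgNTC libraries. Hexa rose by 0.82 ± 0.06 with IFN-gamma and 0.92 ± 0.06 in PBS on the log2 scale in Ifngr1-KO cells, against 0.97 ± 0.06 and 1.01 ± 0.06 in sgNTC cells. For both genes no ULA library overlapped the adherent libraries of its line.

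The proteases Ctsd (cathepsin D), Ctsz (cathepsin Z) and Tpp1 (tripeptidyl peptidase 1) had log2 fold changes of 0.62 to 0.84 in Ifngr1-KO cells and 0.22 to 0.84 in sgNTC cells. Glb1 (beta-galactosidase), Gaa (acid alpha-glucosidase, which degrades glycogen), Gusb (beta-glucuronidase) and Lipa (lysosomal acid lipase) rose by 0.30 to 0.63 on the log2 scale in Ifngr1-KO cells and by 0.22 to 0.61 in sgNTC cells. Gm49369 overlaps Ctsd, Gm49230 overlaps Ctsl and Tmppe overlaps Glb1 on the same strand, so these counts are less certain. The same limit holds for overlaps on the opposite strand, as the counts take no account of strand. Neurl2 and Pltp overlap Ctsa in this way, Nelfcd overlaps Ctsz and Tmem202 overlaps Hexa. Outside the hydrolases, Fam171a2 overlaps Grn, Rgs20 overlaps Atp6v1h, Cntd1 overlaps Becn1 and Gm15531 overlaps Mitf on the opposite strand.

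Neu1 and Ctsl differed in direction between the lines. Neu1 encodes neuraminidase 1, the sialidase that works in a complex with cathepsin A. It had 92.9, 86.3 and 110 CPM in ULA against 75.8, 71.9 and 67.1 CPM in adherent Ifngr1-KO libraries with IFN-gamma, and 89.8, 98.2 and 97.1 CPM against 73.7, 71.9 and 75.4 CPM in PBS. In sgNTC cells it had 62.2, 61 and 62.9 CPM in ULA against 82.5, 63.5 and 77.1 CPM in adherent libraries with IFN-gamma, and 66.2, 70.1 and 65.6 CPM against 78.8, 84.3 and 81.1 CPM in PBS. Every ULA library was above its adherent counterparts in Ifngr1-KO cells and below them in sgNTC cells. The log2 fold change was 0.43 ± 0.07 with IFN-gamma (adjusted p = 7.85e-06) and 0.37 ± 0.08 in PBS (adjusted p = 7.25e-05) in Ifngr1-KO cells, against -0.26 ± 0.08 (adjusted p = 0.00294) and -0.27 ± 0.08 (adjusted p = 0.00188) in sgNTC cells. The fall of Neu1 in sgNTC cells did not pass with library totals alone (-0.15, adjusted p = 0.108 with IFN-gamma, and -0.18, adjusted p = 0.051 in PBS), and with IFN-gamma it did not pass without adherent sgNTC replicate 1 (-0.18, adjusted p = 0.0506).

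Ctsl encodes cathepsin L, another cysteine protease. Its log2 fold change was 0.27 ± 0.05 with IFN-gamma (adjusted p = 1.3e-05) and 0.24 ± 0.05 in PBS (adjusted p = 7.28e-05) in Ifngr1-KO cells, against -0.16 ± 0.05 (adjusted p = 0.007) and -0.10 ± 0.05 (adjusted p = 0.0822) in sgNTC cells. With IFN-gamma it had 605, 646 and 618 CPM in ULA against 519, 518 and 510 CPM in adherent Ifngr1-KO libraries, and 525, 546 and 537 CPM in ULA against 624, 568 and 599 CPM in adherent sgNTC libraries. These groups did not overlap in either line. The fall in sgNTC cells did not pass without adherent sgNTC IFN-gamma replicate 1 (-0.12, adjusted p = 0.0544) or replicate 3 (-0.13, adjusted p = 0.0535), nor with library totals alone (-0.04, adjusted p = 0.487). In PBS the value in sgNTC cells became a call without adherent sgNTC replicate 3 (-0.14, adjusted p = 0.0225).

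**Figure D2:**
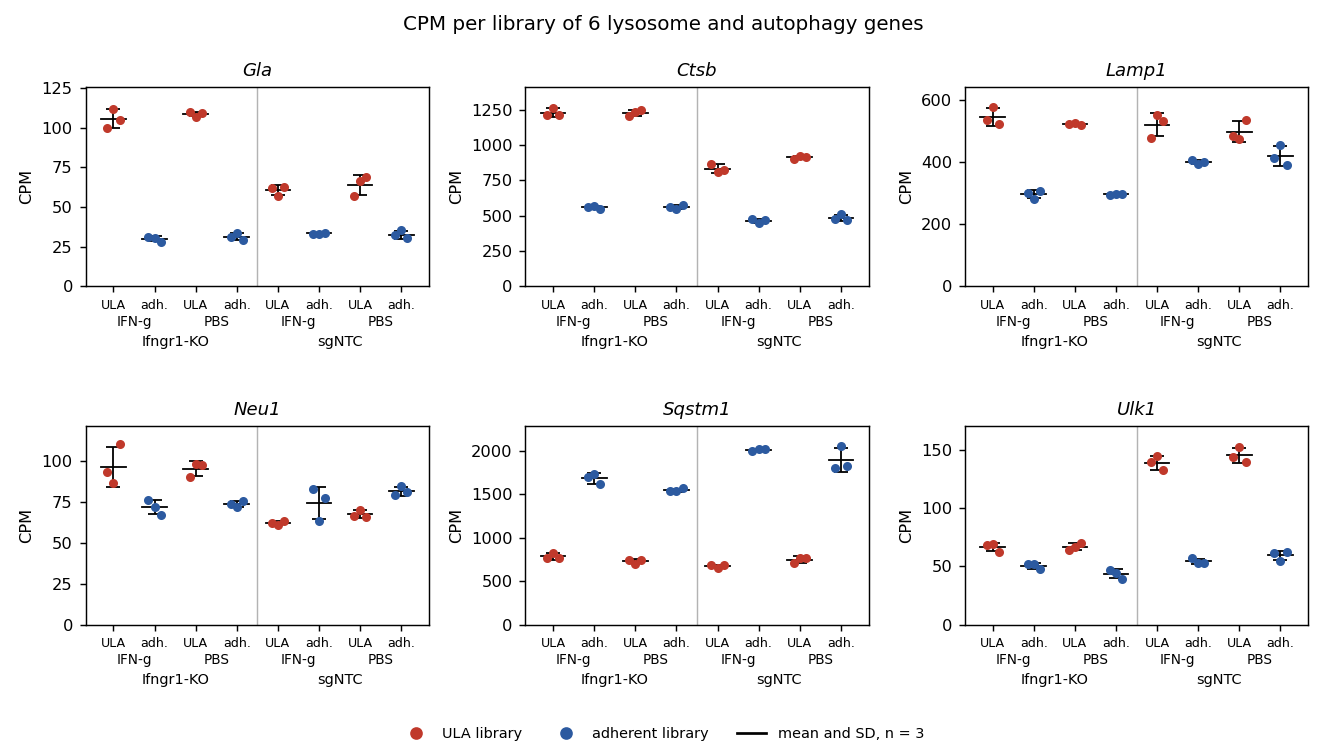
Level in CPM (vertical axis) of Gla, Ctsb, Lamp1, Neu1, Sqstm1 and Ulk1 in every library, in 8 groups along the horizontal axis with ULA left of adherent, IFN-gamma left of PBS and Ifngr1-KO left of sgNTC. Points are libraries, and bars show the mean and SD (n = 3). Gla in ULA Ifngr1-KO libraries lies between 100 and 112 CPM, above the 56.8 to 68.9 CPM of ULA sgNTC libraries, and Sqstm1 is lower in every ULA group than in its adherent counterpart.

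The plot of 6 genes by library shows Lamp1 with yet another pattern, a wide gap between the lines in adherent culture and a small one in ULA culture. The small gap did not pass the test with all libraries and passed without 1 of the sgNTC libraries in each treatment. Lamp1 and Lamp2 encode the most abundant glycoproteins of the lysosomal membrane. Lamp1 had 537, 580 and 523 CPM in ULA against 301, 283 and 307 CPM in adherent Ifngr1-KO libraries with IFN-gamma, and 523, 528 and 519 CPM against 296, 297 and 299 CPM in PBS. In sgNTC cells it had 479, 552 and 534 CPM in ULA against 409, 395 and 402 CPM in adherent libraries with IFN-gamma, and 484, 474 and 537 CPM against 414, 455 and 393 CPM in PBS. ULA libraries were above the adherent ones in both lines, by a wider margin in Ifngr1-KO cells. The log2 fold change was 0.88 ± 0.06 with IFN-gamma (adjusted p = 1.57e-15) and 0.81 ± 0.06 in PBS (adjusted p = 1.17e-14) in Ifngr1-KO cells, against 0.37 ± 0.06 (adjusted p = 5.19e-07) and 0.25 ± 0.06 (adjusted p = 0.000286) in sgNTC cells. Grtp1 overlaps Lamp1 on the opposite strand.

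Lamp2 rose in both lines, with log2 fold changes of 0.82 ± 0.04 with IFN-gamma and 0.79 ± 0.04 in PBS in Ifngr1-KO cells, against 0.74 ± 0.04 and 0.80 ± 0.04 in sgNTC cells, and a difference between the lines of 0.08 ± 0.06 (adjusted p = 0.308) and -0.01 ± 0.06 (adjusted p = 0.933). In PBS it had 815, 808 and 817 CPM in ULA against 465, 473 and 477 CPM in adherent Ifngr1-KO libraries, and 835, 871 and 884 CPM in ULA against 506, 506 and 479 CPM in adherent sgNTC libraries. Grn, which encodes progranulin, and Npc2, which hands cholesterol to NPC1 for export from the lysosome, rose by 0.45 to 0.70 on the log2 scale over the 4 comparisons. Mcoln1, the gene of the lysosomal calcium channel TRPML1, was called in 1 comparison, sgNTC cells in PBS, at -0.17 ± 0.07 (adjusted p = 0.0305), a call lost with library totals alone (-0.07, adjusted p = 0.376), under DESeq2 (-0.14, adjusted p = 0.0839) and with its size factors (-0.14, adjusted p = 0.0787). It was also lost without ULA sgNTC PBS replicate 1 or 2 or adherent sgNTC PBS replicate 1 or 2 (-0.18 to -0.13, adjusted p between 0.0508 and 0.165). Gpnmb, a transmembrane glycoprotein that is also a melanocyte gene, reached at most 4.45 CPM and was called in no culture comparison in edgeR's test. In Ifngr1-KO cells in PBS its log2 fold change of 1.85 ± 0.89 (adjusted p = 0.0762) became a call under DESeq2 (1.90, adjusted p = 0.0459) and without the filter (1.87, adjusted p = 0.00257). Without adherent Ifngr1-KO replicate 3 it was 3.53 (adjusted p = 0.0151), and without ULA Ifngr1-KO replicate 1 it was 2.45 (adjusted p = 0.00356).

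The 4 V-ATPase genes did not move as a block. Atp6v0a1 encodes an isoform of the large membrane subunit, and it rose in both lines by 0.78 to 0.91 on the log2 scale. In PBS it had 259, 268 and 262 CPM in ULA against 152, 157 and 150 CPM in adherent Ifngr1-KO libraries, and 234, 238 and 212 CPM in ULA against 129, 118 and 123 CPM in adherent sgNTC libraries, without overlap in either line. Atp6v1a, the catalytic subunit, had log2 fold changes of 0.41 ± 0.05 with IFN-gamma (adjusted p = 6.3e-08) and 0.35 ± 0.06 in PBS (adjusted p = 1.12e-06) in Ifngr1-KO cells, against -0.11 ± 0.06 (adjusted p = 0.0783) and 0.01 ± 0.05 (adjusted p = 0.847) in sgNTC cells. In PBS Atp6v1a had 401, 399 and 414 CPM in ULA against 318, 322 and 312 CPM in adherent Ifngr1-KO libraries, and 298, 340 and 351 CPM in ULA against 336, 327 and 317 CPM in adherent sgNTC libraries, which overlapped. The value in sgNTC cells with IFN-gamma became a call without the filter (-0.13, adjusted p = 0.0411) and without ULA sgNTC replicate 3 (-0.17, adjusted p = 0.0113).

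Atp6v1h, a regulatory subunit, rose with IFN-gamma in Ifngr1-KO cells (0.24 ± 0.06, adjusted p = 0.000432) and fell in sgNTC cells with IFN-gamma (-0.34 ± 0.06, adjusted p = 4.03e-06) and in PBS (-0.20 ± 0.06, adjusted p = 0.00227). Its values with IFN-gamma were 229, 227 and 244 CPM in ULA against 194, 200 and 199 CPM in adherent Ifngr1-KO libraries, and 184, 184 and 189 CPM in ULA against 236, 213 and 254 CPM in adherent sgNTC libraries, so the groups parted in opposite directions. Atp6v0d1, a subunit that joins the membrane ring to the stalk, had the same signs, at 0.19 ± 0.06 in Ifngr1-KO (adjusted p = 0.00768) and -0.22 ± 0.06 in sgNTC cells (adjusted p = 0.00222) with IFN-gamma. In PBS neither gene was called in Ifngr1-KO cells by edgeR (0.09 ± 0.06 for Atp6v1h and 0.10 ± 0.06 for Atp6v0d1, adjusted p = 0.153 and 0.135). DESeq2 called both higher (0.14 and 0.15, adjusted p = 0.044 and 0.0437), as did edgeR with DESeq2's size factors (adjusted p = 0.0429 and 0.0404). In PBS Atp6v0d1 fell in sgNTC cells (-0.25 ± 0.06, adjusted p = 0.000501). With library totals alone the fall of Atp6v0d1 in sgNTC cells with IFN-gamma did not pass (-0.10, adjusted p = 0.141), nor did that of Atp6v1h in PBS (-0.11, adjusted p = 0.0905), which also did not pass without ULA sgNTC PBS replicate 1 (-0.12, adjusted p = 0.0674).

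Among the transcription factors, Tfeb rose while Tfe3 and Mitf fell. Tfeb, the best known regulator of lysosomal genes (ENSMUSG00000023990, chr17:47737030-47792419, plus strand), had 25.8, 26.5 and 29.6 CPM in ULA against 14, 12.2 and 13.3 CPM in adherent Ifngr1-KO libraries with IFN-gamma, and 24.2, 26.4 and 28.7 CPM against 11.8, 9.88 and 14.4 CPM in PBS. Among sgNTC libraries Tfeb had 18.5, 16.5 and 18.8 CPM in ULA against 12.5, 11.8 and 10.8 CPM in adherent libraries with IFN-gamma, and 21, 21.9 and 20.6 CPM against 12.7, 15.6 and 12.5 CPM in PBS. All ULA libraries lay above the adherent ones. Its log2 fold change was 1.05 ± 0.11 with IFN-gamma (adjusted p = 1.92e-10) and 1.14 ± 0.11 in PBS (adjusted p = 4.45e-11) in Ifngr1-KO cells, against 0.62 ± 0.11 (adjusted p = 1.11e-05) and 0.64 ± 0.11 (adjusted p = 4.1e-06) in sgNTC cells.

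Tfe3, a close relative with overlapping targets, was lower in ULA culture. In PBS it had 70.2, 73.9 and 69.9 CPM in ULA against 94.6, 98.8 and 96.2 CPM in adherent Ifngr1-KO libraries, and 70.8, 64.1 and 70.8 CPM in ULA against 91.9, 88.1 and 87.5 CPM in adherent sgNTC libraries. It fell without overlap in both lines, with log2 fold changes of -0.36 ± 0.05 with IFN-gamma and -0.44 ± 0.05 in PBS in Ifngr1-KO cells, against -0.37 ± 0.05 and -0.38 ± 0.05 in sgNTC cells. Mitf, known best from melanocytes and osteoclasts, had low levels in every group. In PBS it had 1.04, 1.17 and 1.27 CPM in ULA against 4.93, 6.04 and 5.08 CPM in adherent Ifngr1-KO libraries, and 1.59, 0.782 and 1.26 CPM in ULA against 4.29, 5.69 and 4.05 CPM in adherent sgNTC libraries. Its log2 fold change was -2.58 ± 0.26 with IFN-gamma and -2.20 ± 0.25 in PBS in Ifngr1-KO cells, against -1.45 ± 0.24 and -1.93 ± 0.25 in sgNTC cells.

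**Figure D3:**
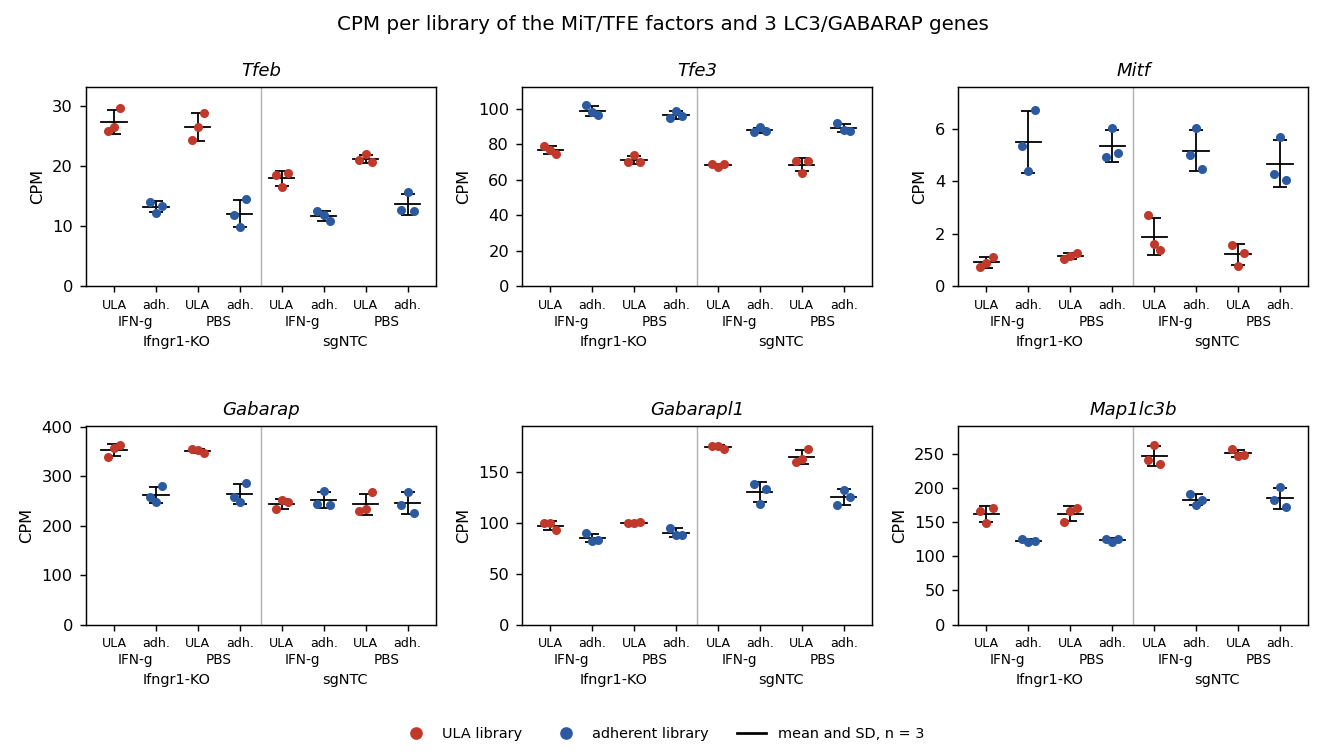
Level in CPM (vertical axis) of the transcription factor genes Tfeb, Tfe3 and Mitf and of the LC3 and GABARAP family genes Gabarap, Gabarapl1 and Map1lc3b in every library, in the same 8 groups, with the mean and SD (n = 3). Tfeb is higher and Tfe3 and Mitf are lower in ULA than in adherent groups of both lines, Gabarap is higher in ULA Ifngr1-KO libraries (339 to 363 CPM) than in adherent ones (247 to 287 CPM), and Gabarapl1 and Map1lc3b are lower in Ifngr1-KO than in sgNTC libraries.

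Autophagy genes moved both ways, as the plots by library show, with 6 of 9 higher and 2 lower in 3 of the 4 comparisons and 6 higher and 1 lower in sgNTC cells in PBS. Among all tested genes 60.2% were called in Ifngr1-KO and 64.6% in sgNTC cells with IFN-gamma, and 60.7% and 64.6% in PBS. One of the 2 lower in sgNTC cells with IFN-gamma, Becn1, lost its call there under several alternatives. Sqstm1 (ENSMUSG00000015837, chr11:50199366-50210827, minus strand) is also a target of the oxidative stress factor NRF2. It had 763, 827 and 763 CPM in ULA against 1698, 1739 and 1619 CPM in adherent Ifngr1-KO libraries with IFN-gamma, and 740, 701 and 744 CPM against 1534, 1535 and 1568 CPM in PBS. In sgNTC cells it had 683, 656 and 684 CPM in ULA against 2002, 2018 and 2024 CPM in adherent libraries with IFN-gamma, and 705, 767 and 770 CPM against 1803, 2053 and 1830 CPM in PBS. The cultures were far apart in both lines, with the highest levels in adherent sgNTC cells. The log2 fold change was -1.10 ± 0.05 with IFN-gamma (adjusted p = 1.13e-19) and -1.08 ± 0.05 in PBS (adjusted p = 1.76e-19) in Ifngr1-KO cells, against -1.58 ± 0.05 (adjusted p = 4.63e-24) and -1.34 ± 0.05 (adjusted p = 3.59e-22) in sgNTC cells. Mrnip overlaps it on the opposite strand.

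Ulk1, the kinase that starts autophagy (ENSMUSG00000029512, chr5:110784488-110810097, minus strand, no overlapping gene), rose more in sgNTC cells. It had 68.8, 69.1 and 62.7 CPM in ULA against 52.2, 52.1 and 47.6 CPM in adherent Ifngr1-KO libraries with IFN-gamma, and 64.3, 67.1 and 69.8 CPM against 47.3, 44 and 39.5 CPM in PBS. The sgNTC libraries had 140, 145 and 133 CPM in ULA against 57.1, 53.1 and 53.2 CPM in adherent libraries with IFN-gamma, and 144, 153 and 140 CPM against 61.7, 54.6 and 62.1 CPM in PBS. ULA sgNTC libraries stood above all others. Its log2 fold change was 0.40 ± 0.06 with IFN-gamma (adjusted p = 2.19e-06) and 0.62 ± 0.07 in PBS (adjusted p = 3.86e-10) in Ifngr1-KO cells, against 1.35 ± 0.07 (adjusted p = 3.45e-19) and 1.29 ± 0.06 (adjusted p = 1e-18) in sgNTC cells.

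Of the 5 LC3 and GABARAP genes, whose products are joined to autophagosome membranes, Gabarap and Gabarapl1 differed between the lines in their culture effect in both treatments and Map1lc3a in PBS, while Map1lc3b and Gabarapl2 were called in neither. Gabarap had 339, 357 and 363 CPM in ULA against 257, 248 and 281 CPM in adherent Ifngr1-KO libraries with IFN-gamma, and 355, 353 and 346 CPM against 258, 247 and 287 CPM in PBS. In sgNTC cells it had 233, 252 and 248 CPM in ULA against 244, 270 and 241 CPM in adherent libraries with IFN-gamma, and 230, 233 and 268 CPM against 241, 269 and 226 CPM in PBS. The cultures parted in Ifngr1-KO cells and overlapped in sgNTC cells. Gabarap had log2 fold changes of 0.43 ± 0.07 with IFN-gamma (adjusted p = 7.23e-07) and 0.41 ± 0.07 in PBS (adjusted p = 1.54e-06) in Ifngr1-KO cells, against -0.04 ± 0.07 (adjusted p = 0.568) and -0.01 ± 0.07 (adjusted p = 0.904) in sgNTC cells. Gabarapl1 leaned the other way, with 0.20 ± 0.06 and 0.15 ± 0.06 in Ifngr1-KO cells against 0.43 ± 0.06 and 0.39 ± 0.06 in sgNTC cells, with IFN-gamma given before PBS. Map1lc3b, which encodes the LC3B protein used as the common autophagosome marker, rose by 0.39 to 0.44 on the log2 scale in all 4 comparisons, Gabarapl2 by 0.42 to 0.51, and Map1lc3a, the gene of LC3A, by 0.33 to 0.75.

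Becn1, the gene of Beclin 1, fell in Ifngr1-KO cells by 0.20 on the log2 scale with IFN-gamma (adjusted p = 0.0024) and by 0.26 in PBS (adjusted p = 0.00014). In sgNTC cells its log2 fold change was -0.13 ± 0.06 with IFN-gamma (adjusted p = 0.0443) and -0.10 ± 0.06 in PBS (adjusted p = 0.105). The call with IFN-gamma in Ifngr1-KO cells was lost without adherent Ifngr1-KO IFN-gamma replicate 2 (-0.14, adjusted p = 0.0548), and that in sgNTC cells with library totals alone (-0.01, adjusted p = 0.877), under DESeq2 (-0.10, adjusted p = 0.117), with its size factors (-0.10, adjusted p = 0.123), without the filter (-0.15, adjusted p = 0.0533), with halved counts (-0.11, adjusted p = 0.0703) and without ULA sgNTC IFN-gamma replicate 2 or 3 or any of the 3 adherent ones (-0.14 to -0.09, adjusted p between 0.0517 and 0.21). In PBS the value in sgNTC cells became a call without ULA sgNTC replicate 2 (-0.14, adjusted p = 0.0472). Wipi1, which encodes a protein that binds the lipid mark of the early autophagosome, rose in sgNTC cells, with 35.3, 39.6 and 34.6 CPM in ULA against 27.8, 31.4 and 27.1 CPM in adherent libraries with IFN-gamma (0.34 ± 0.09, adjusted p = 0.00108). In Ifngr1-KO cells it had 28.6, 31.5 and 25.1 CPM in ULA against 32.3, 26.3 and 28.8 CPM in adherent libraries (-0.04 ± 0.09, adjusted p = 0.726), and these overlapped. In PBS Wipi1 rose in sgNTC cells as well, averaging 36.1 CPM in ULA against 27.7 CPM in adherent culture. Its value in Ifngr1-KO cells in PBS (-0.19, adjusted p = 0.0725) became a call without adherent Ifngr1-KO replicate 3 (-0.22, adjusted p = 0.0459).

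The median effect of culture lay close together with and without the promoter letters shown above. The 10 genes with CACGTG had a median log2 fold change of 0.47 in Ifngr1-KO and 0.35 in sgNTC cells with IFN-gamma, while the 21 with a window without it had 0.45 and 0.43. In PBS the medians were 0.44 and 0.34 with the letters, against 0.48 and 0.44 without them. Genes with TCACGTGA ranged widely in Ifngr1-KO cells in PBS, Gla at 1.80, Ctsa at 1.09, Ctsd at 0.67, Atp6v1a at 0.35, Atp6v0d1 at 0.10 and Mcoln1 at -0.07.

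The effect of ULA culture differed between the lines for 17 of the 35 genes in each treatment. The test of that difference, ULA over adherent in Ifngr1-KO minus the same in sgNTC cells, called 17 of the 35 genes with IFN-gamma, 13 above 0 and 4 below, where 32.3% of all tested genes were called (19.0% above and 13.3% below). In PBS it called 17 genes, again 13 above and 4 below, where 27.8% were called (16.6% above and 11.2% below). Of these, 12 were called above 0 in both treatments (Ctsb, Ctsl, Gla, Neu1, Tpp1, Lamp1, Atp6v0d1, Atp6v1a, Atp6v1h, Tfeb, Sqstm1 and Gabarap), and Gabarapl1, Ulk1 and Wipi1 were called below 0 in both. The share of all tested genes called the same way in both was not counted, and cannot exceed 16.6% above and 11.2% below. In edgeR's test Ctsd and Mitf were called with IFN-gamma and not in PBS, Grn and Map1lc3a in PBS and not with IFN-gamma, and 16 in neither. Whether these differences depend on treatment was not tested. In PBS the Ctsd difference (0.19 ± 0.08, adjusted p = 0.0656) was called under DESeq2 (0.20, adjusted p = 0.047) and without adherent Ifngr1-KO replicate 3, adherent sgNTC replicate 3 or ULA sgNTC replicate 3 (0.24 to 0.26). With IFN-gamma the Grn difference (0.16 ± 0.08, adjusted p = 0.106) was called without adherent Ifngr1-KO replicate 1, adherent sgNTC replicate 2, ULA Ifngr1-KO replicate 2 or ULA sgNTC replicate 2 (0.22, adjusted p between 0.0209 and 0.0405). In PBS the Grn difference (0.21 ± 0.08) was not called with library totals alone (0.12, adjusted p = 0.281). For Sqstm1, a value above 0 means a smaller fall in Ifngr1-KO cells.

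**Figure D4:**
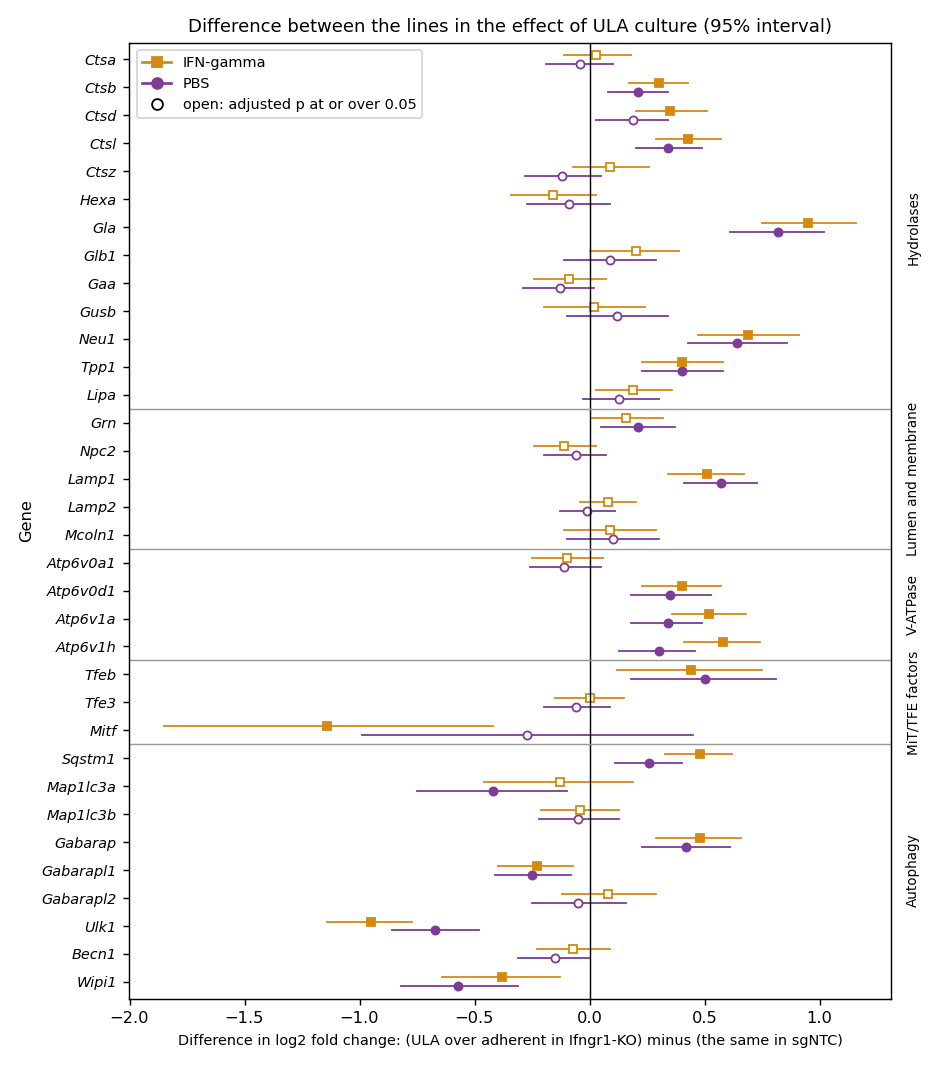
How far the effect of ULA culture differed between the lines, on the log2 scale (horizontal axis), with its 95% interval, for 34 genes (Gpnmb left out for its low counts). Squares are IFN-gamma and circles PBS, and open symbols did not pass an adjusted p of 0.05. Gla lies farthest to the right and Ulk1 is below 0 in both treatments.

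Gla had the largest called difference above 0, at 0.95 ± 0.10 with IFN-gamma (adjusted p = 2.87e-09) and 0.82 ± 0.10 in PBS (adjusted p = 8.2e-08). Neu1 followed at 0.69 ± 0.11 with IFN-gamma (adjusted p = 4.8e-06) and 0.64 ± 0.11 in PBS (adjusted p = 1.8e-05), with called changes in opposite directions in the lines in both treatments. Ctsl, Atp6v0d1 and Atp6v1h had such opposite calls with IFN-gamma, and under DESeq2 Atp6v0d1 and Atp6v1h were called higher in Ifngr1-KO cells in PBS as well. Ulk1 was at -0.95 ± 0.09 with IFN-gamma (adjusted p = 5.26e-10) and -0.67 ± 0.09 in PBS (adjusted p = 7.23e-07), so the gene that starts autophagy and the enzyme gene Gla parted the lines in opposite ways. The V-ATPase genes other than Atp6v0a1 were called above 0 in both treatments. With library totals alone the counts became 12 above and 8 below 0 with IFN-gamma and 10 above and 6 below in PBS, and the median of all tested genes moved to -0.12 with IFN-gamma. The Tfeb difference (0.44 ± 0.15 with IFN-gamma and 0.50 ± 0.15 in PBS) was lost with IFN-gamma under library totals (0.32, adjusted p = 0.12) and in PBS without adherent Ifngr1-KO replicate 2 (0.39, adjusted p = 0.0571) or adherent sgNTC replicate 2 (0.41, adjusted p = 0.0525). With IFN-gamma it was also lost without ULA Ifngr1-KO replicate 3, ULA sgNTC replicate 2, adherent Ifngr1-KO replicate 2 or adherent sgNTC replicate 1 or 2 (0.38 to 0.42, adjusted p between 0.0541 and 0.0834).

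Set against the sgNTC line in the same culture, Ifngr1-KO cells had more transcript of several hydrolase and pump genes in ULA culture and less of Map1lc3a, Map1lc3b and Gabarapl1 in both cultures. In ULA culture 20 of the 35 genes were higher and 10 lower with IFN-gamma, where 54.8% of all tested genes were called (27.6% up and 27.2% down), and 16 were higher and 9 lower in PBS, where 50.1% were called (24.5% up and 25.6% down). In adherent culture 9 were higher and 14 lower with IFN-gamma, where 43.3% of all genes were called (20.2% up and 23.1% down), and 6 were higher and 12 lower in PBS, where 43.9% were called (20.1% up and 23.9% down). The medians of the 35 were 0.22 and 0.07 in ULA and -0.10 and -0.08 in adherent culture, with IFN-gamma given before PBS, while those of all tested genes lay between -0.03 and -0.01. These comparisons use the same libraries as those of culture. With library totals alone the split in adherent PBS cultures was 8 higher and 10 lower.

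**Figure D5:**
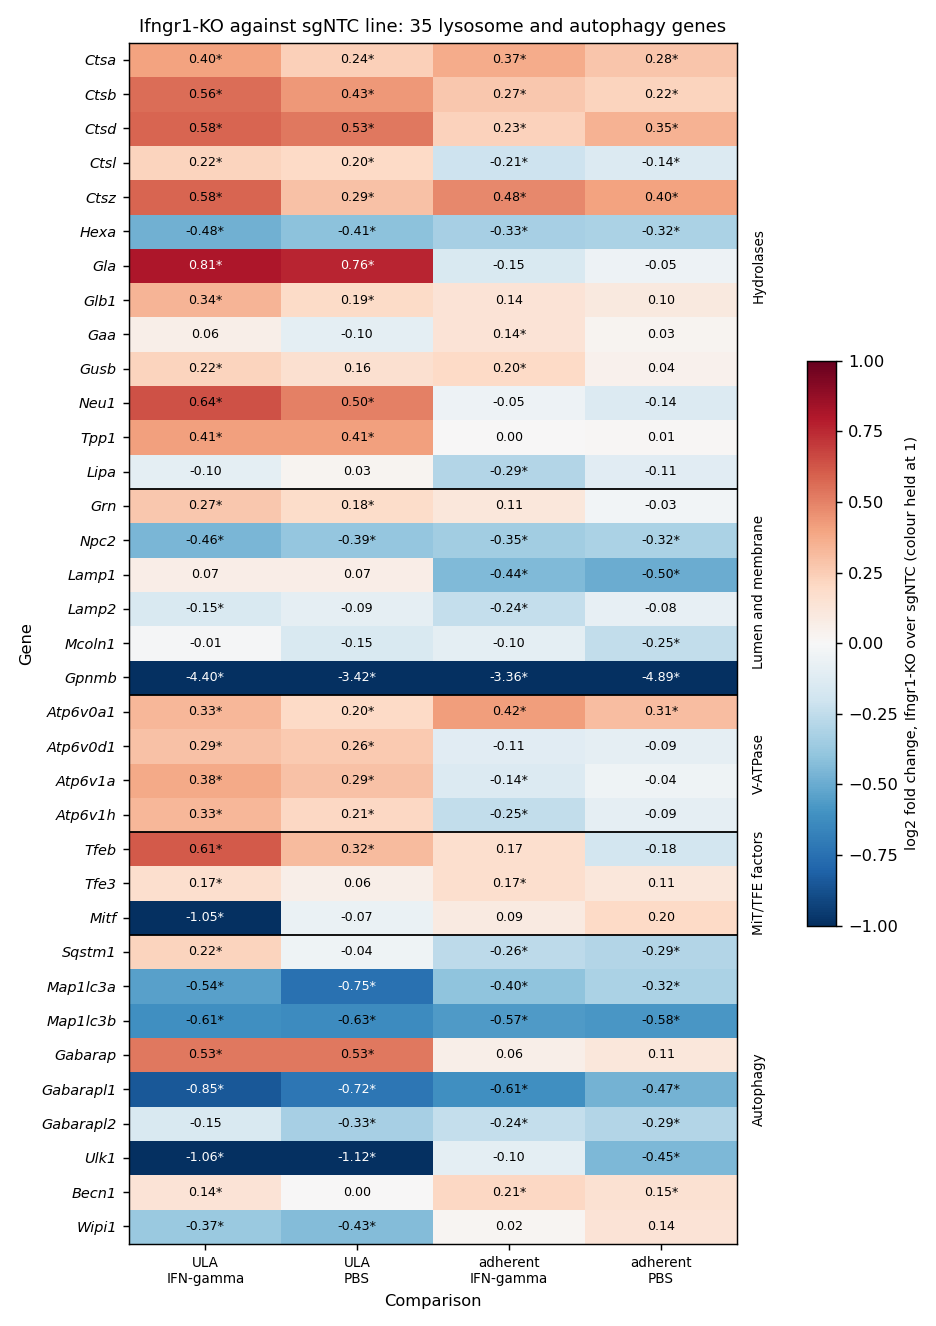
Log2 fold change of Ifngr1-KO over sgNTC cells for each of the 35 genes (down the page, grouped by role) in ULA and adherent culture with IFN-gamma or PBS (columns), with an asterisk at an adjusted p under 0.05 and colour held at 1. Gpnmb, Map1lc3b, Gabarapl1, Hexa and Npc2 are lower in Ifngr1-KO cells in all 4 columns, and Gla and Neu1 are called higher in the ULA columns only.

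The heat map of line differences shows 11 genes that were called in the same direction in all 4 comparisons. Ctsa, Ctsb, Ctsd, Ctsz and Atp6v0a1 were higher in Ifngr1-KO cells, Ctsb by 0.56 ± 0.04 and 0.43 ± 0.04 on the log2 scale in ULA and by 0.27 ± 0.04 and 0.22 ± 0.04 in adherent culture, with IFN-gamma given before PBS. Hexa, Npc2, Gpnmb, Map1lc3a, Map1lc3b and Gabarapl1 were lower, with Gpnmb at low counts that passed the filter through the sgNTC libraries. How many of all tested genes were called the same way in all 4 was not counted. That share cannot exceed 20.1% higher and 23.1% lower, the smallest shares of a single comparison. The call of Map1lc3a in adherent PBS cultures (-0.32 ± 0.12) was lost without adherent Ifngr1-KO replicate 2 or 3 or adherent sgNTC replicate 2 or 3 (-0.32 to -0.21, adjusted p between 0.0546 and 0.189), and with library totals alone (-0.27, adjusted p = 0.0698). Map1lc3b in adherent PBS cultures had 125, 121 and 126 CPM in Ifngr1-KO against 182, 202 and 172 CPM in sgNTC libraries, and in ULA 150, 166 and 171 CPM in Ifngr1-KO against 257, 247 and 249 CPM in sgNTC libraries. The lines did not overlap in either culture, and the log2 fold change was -0.63 ± 0.06 in ULA (adjusted p = 6.85e-11) and -0.58 ± 0.06 in adherent culture (adjusted p = 6.7e-10).

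Gabarapl1, the closest relative of Gabarap, had 99.8, 100 and 101 CPM in ULA Ifngr1-KO against 160, 163 and 173 CPM in ULA sgNTC libraries in PBS (-0.72 ± 0.06, adjusted p = 1e-12), and 95.4, 88.3 and 87.8 CPM against 118, 133 and 126 CPM in adherent culture (-0.47 ± 0.06, adjusted p = 2.32e-08). Gabarap itself was higher in ULA Ifngr1-KO cells (0.53 ± 0.07 in both treatments) and was not called in adherent culture, where the lines overlapped (0.06 ± 0.07 with IFN-gamma and 0.11 ± 0.07 in PBS, adjusted p = 0.516 and 0.199). In adherent PBS cultures it became a call without adherent sgNTC replicate 2 (0.20, adjusted p = 0.0208) and with library totals alone (0.16, adjusted p = 0.038). Becn1 was higher in Ifngr1-KO cells in 3 of the 4 comparisons, in adherent culture by 0.21 ± 0.06 with IFN-gamma and 0.15 ± 0.06 in PBS and in ULA culture by 0.14 ± 0.06 with IFN-gamma. Its call in adherent PBS cultures was lost without Ifngr1-KO replicate 3 or sgNTC replicate 1 (0.14 and 0.13). The call of Becn1 in ULA culture was lost with library totals alone (0.07, adjusted p = 0.28), with the compared groups alone (0.14, adjusted p = 0.0625) and without ULA Ifngr1-KO IFN-gamma replicate 1 or ULA sgNTC IFN-gamma replicate 3 (0.14 and 0.12). Gm44243 overlaps Gabarapl1, and Gm20388 overlaps Map1lc3b, on the same strand, so their counts are less certain. Gpnmb was near 0 in Ifngr1-KO cells: in PBS it had 0, 0.664 and 0.255 CPM in ULA Ifngr1-KO against 2.48, 3.11 and 4.45 CPM in ULA sgNTC libraries, and 0.0522, 0 and 0.205 CPM in adherent Ifngr1-KO against 2.85, 2.62 and 2.12 CPM in adherent sgNTC libraries. With so few counts the log2 fold changes are imprecise (-3.42 ± 0.59 in ULA and -4.89 ± 0.72 in adherent culture). Gpnmb had 0 to 26 counts per Ifngr1-KO library and 64 to 184 per sgNTC library. It passed the filter on low counts through the sgNTC libraries, so its calls between the lines are a description only.

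The gap between the lines changed with culture for other members. Gla was at 0.81 ± 0.07 and 0.76 ± 0.07 in ULA (adjusted p = 4.57e-12 and 2.01e-11) against -0.15 ± 0.07 and -0.05 ± 0.07 in adherent culture (adjusted p = 0.0976 and 0.577), IFN-gamma before PBS. Neu1 was at 0.64 ± 0.08 and 0.50 ± 0.07 in ULA against -0.05 ± 0.08 and -0.14 ± 0.08 in adherent culture. Lamp1 did the reverse, at 0.07 ± 0.06 in ULA in both treatments (adjusted p = 0.321 and 0.319) against -0.44 ± 0.06 and -0.50 ± 0.06 in adherent culture (adjusted p = 8.3e-08 and 6.19e-09). In ULA culture Lamp1 became a call without ULA sgNTC IFN-gamma replicate 2 (0.16, adjusted p = 0.0363) and, in PBS, without ULA sgNTC replicate 3 (0.17, adjusted p = 0.0237). Ulk1 was lower in ULA Ifngr1-KO than in ULA sgNTC cells, at -1.06 ± 0.06 with IFN-gamma (adjusted p = 9.91e-16) and -1.12 ± 0.06 in PBS (adjusted p = 3.24e-16). In adherent culture Ulk1 was also called lower in PBS, averaging 43.6 CPM in Ifngr1-KO against 59.5 CPM in sgNTC cells. It was not called there with IFN-gamma (50.7 against 54.5 CPM). By role, 10 of the 13 hydrolases were higher and 1 lower in ULA culture with IFN-gamma, where 54.8% of all tested genes were called (27.6% up and 27.2% down), and 9 were higher and 1 lower in PBS, where 50.1% were called (24.5% up and 25.6% down). All 4 V-ATPase genes were higher in ULA culture in both treatments. Mitochondrially encoded genes differed between the lines as well, at 3.31 to 3.87% of counts in ULA Ifngr1-KO against 5.09 to 6.12% in ULA sgNTC libraries, and their part in these differences was not tested.

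IFN-gamma, a cytokine that activates lysosomes and autophagy in macrophages, was followed by a called change in 0 of the 35 genes in each line and culture in edgeR's test. In sgNTC cells 2.05% of all tested genes were called in ULA and 0.315% in adherent culture. Irf1, a direct interferon target, averaged 131 CPM with IFN-gamma against 48.4 CPM in PBS in ULA sgNTC cells, and 74.5 against 47.6 CPM in adherent sgNTC cells. In Ifngr1-KO cells 0 of all tested genes were called in ULA and 0.00684% in adherent culture, and Irf1 averaged 55.6 CPM with IFN-gamma against 55.9 CPM in PBS in ULA and 43.2 against 40.5 CPM in adherent culture.

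At an unadjusted p under 0.05, 7 of the 35 genes passed in ULA sgNTC, 0 in adherent sgNTC, 5 in ULA Ifngr1-KO and 4 in adherent Ifngr1-KO cells, and DESeq2 called 1, 0, 0 and 0 in the same order. The 1 gene was Ctsb in ULA sgNTC cells, with 868, 807 and 825 CPM with IFN-gamma against 904, 924 and 919 CPM in PBS (DESeq2 log2 fold change of -0.14, adjusted p = 0.0295). Leaving aside Gpnmb and Mitf for their low counts, the fitted log2 fold changes of the other 33 lay between -0.24 and 0.10 in ULA sgNTC, -0.21 and 0.10 in adherent sgNTC, -0.04 and 0.15 in ULA Ifngr1-KO and -0.13 and 0.22 in adherent Ifngr1-KO cells. Among these the 95% intervals reached at most -0.45 and 0.36, both for Tfeb, in ULA sgNTC and adherent Ifngr1-KO cells. The tests of whether the response to IFN-gamma differed also called none of the 35, between ULA and adherent sgNTC cells (0.0479% of all genes) or between the lines in ULA (1.33%) or adherent culture (0.130%). Unadjusted, 1, 6 and 4 of the 35 passed, and DESeq2 called 0, 2 and 0, the 2 being Ctsz (0.28) and Sqstm1 (0.25).

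Other genes of the same pathways came from lists that leave out the 35, and their counts stand beside the shares of all tested genes. Of 38 other tested hydrolase genes, 27 rose and 4 fell in ULA Ifngr1-KO cells with IFN-gamma, and 28 rose and 5 fell in sgNTC cells, with medians of 0.78 and 0.58. Among all tested genes 29.3% rose and 30.9% fell in Ifngr1-KO cells and 32.6% rose and 32.0% fell in sgNTC cells. In PBS 27 hydrolase genes rose and 3 fell in Ifngr1-KO and 29 rose and 5 fell in sgNTC cells, with medians of 0.61 and 0.57. All tested genes there split into 29.6% up and 31.1% down in Ifngr1-KO and 32.5% up and 32.1% down in sgNTC cells. Lgmn, which encodes the protease legumain, averaged 190 CPM in ULA against 76.4 CPM in adherent Ifngr1-KO cells in PBS (log2 fold change of 1.31 ± 0.06), and 176 against 69.7 CPM in sgNTC cells (1.34 ± 0.06). Scpep1, a serine carboxypeptidase, went the other way in both lines, at 169 CPM in ULA against 306 CPM in adherent Ifngr1-KO cells in PBS (-0.85 ± 0.06) and 119 against 275 CPM in sgNTC cells (-1.20 ± 0.06).

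Of 29 other membrane and lumen genes, 20 rose and 3 fell in Ifngr1-KO and 16 rose and 6 fell in sgNTC cells with IFN-gamma. This made 79.3% and 75.9% called, against 60.2% and 64.6% of all tested genes. In PBS 21 rose and 5 fell in Ifngr1-KO and 16 rose and 7 fell in sgNTC cells. That was 89.7% and 79.3% of the list, against 60.7% and 64.6% of all tested genes. Psap, the precursor of the saposins that present lipids to hydrolases, averaged 641 CPM in ULA against 335 CPM in adherent Ifngr1-KO cells in PBS (0.94 ± 0.04), and 908 against 458 CPM in sgNTC cells (0.99 ± 0.04). Gnptab, the enzyme that makes the mannose 6-phosphate tag of hydrolases, averaged 98.1 CPM in ULA against 33.9 CPM in adherent Ifngr1-KO cells (1.53 ± 0.06), and Igf2r, a receptor for that tag, 371 against 138 CPM (1.43 ± 0.05), and both rose in sgNTC cells as well (0.65 ± 0.06 for Gnptab and 0.90 ± 0.05 for Igf2r). Npc1, the membrane partner of NPC2, fell in both lines, the opposite of Npc2, with a log2 fold change of -0.67 ± 0.07 in Ifngr1-KO cells and of -1.43 ± 0.07 in sgNTC cells, where it averaged 73.8 CPM in ULA against 199 CPM in adherent culture. Of 19 other V-ATPase genes, 10 rose and 3 fell in Ifngr1-KO and 7 rose and 4 fell in sgNTC cells with IFN-gamma. The called share was 68.4% in Ifngr1-KO and 57.9% in sgNTC cells, against 60.2% and 64.6% of all tested genes. In PBS 9 rose and 3 fell in Ifngr1-KO (median of 0.04) and 7 rose and 6 fell in sgNTC cells (median of 0.09). This made 63.2% and 68.4% called, against 60.7% and 64.6% of all tested genes. The share called in this list lay near that of all genes. Atp6v1b2, the B2 subunit that pairs with Atp6v1a, averaged 491 CPM in ULA against 175 CPM in adherent Ifngr1-KO cells (1.49 ± 0.05), and 473 against 237 CPM in sgNTC cells (1.00 ± 0.05), in PBS.

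The other autophagy genes were more evenly divided. Of 47 tested, 23 rose and 12 fell in Ifngr1-KO and 20 rose and 13 fell in sgNTC cells with IFN-gamma, with medians of 0.20 and 0.06. Of the list 74.5% and 70.2% were called, against 60.2% and 64.6% of all tested genes. In PBS 24 rose and 12 fell in Ifngr1-KO and 21 rose and 11 fell in sgNTC cells. That was 76.6% and 68.1% of the list, against 60.7% and 64.6% of all genes. Trp53inp2, which encodes a nuclear protein that moves to autophagosomes, averaged 345 CPM in ULA against 103 CPM in adherent Ifngr1-KO cells in PBS (1.74 ± 0.06) and 433 against 148 CPM in sgNTC cells (1.55 ± 0.06). Retreg1, a receptor for autophagy of the endoplasmic reticulum, averaged 1281 CPM in ULA against 435 CPM in adherent Ifngr1-KO cells (1.56 ± 0.07), and rose by 0.79 ± 0.07 on the log2 scale in sgNTC cells. Atg13, a partner of ULK1, fell to 60.4 CPM in ULA against 135 CPM in adherent Ifngr1-KO cells (-1.17 ± 0.06) and to 66.5 against 123 CPM in sgNTC cells (-0.88 ± 0.06), the opposite of Ulk1.

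Of 29 genes that regulate MiT/TFE factors or mTORC1, 9 rose and 8 fell in Ifngr1-KO and 10 rose and 13 fell in sgNTC cells with IFN-gamma. These were 58.6% and 79.3% of the list, against 60.2% and 64.6% of all tested genes. In PBS 8 rose and 8 fell in Ifngr1-KO and 7 rose and 13 fell in sgNTC cells. The called share was then 55.2% and 69.0%, against 60.7% and 64.6% of all genes. The share in Ifngr1-KO cells lay near that of all genes in both treatments. Sesn2, a stress-induced inhibitor of mTORC1, averaged 17.5 CPM in ULA against 73.2 CPM in adherent Ifngr1-KO cells in PBS (-2.06 ± 0.08) and 15.8 against 80.7 CPM in sgNTC cells (-2.34 ± 0.08), while its relative Sesn1 rose (0.80 ± 0.09 and 1.42 ± 0.09). Mtor itself was lower in Ifngr1-KO than in sgNTC cells, at 91.2 against 197 CPM in ULA (-1.11 ± 0.06) and 87.5 against 129 CPM in adherent PBS cultures (-0.55 ± 0.06). None of these other genes was called in a comparison of IFN-gamma with PBS.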

How the data were processed

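Poly-A RNA of 24 cultures was sequenced, 3 libraries in each of 8 groups, and the groups were taken from the genotype, culture and treatment labels. The submitters' processing notes name Trimmomatic, HISAT2, SAMtools, DESeq2 and the featureCounts program of Subread 2.1.1, with the mouse build mm10 (GRCm38). The deposited values are raw counts per gene, and per the file headers both mates of a pair were counted, without a strand setting, so low counts are mostly even (61.3 to 67.2% of those between 1 and 20) and genes that overlap others are less certain. The mates are not independent reads, so depth in fragments is lower than the totals of 33494774 to 63154942 counts.

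From the counts, filterByExpr (minimum count of 10) kept 14622 genes with at least 99.97% of every library. A mean per group was fitted to all 24 libraries in edgeR 4.0.16 (R 4.3.3) with TMM factors of 0.958 to 1.054 and robust quasi-likelihood dispersion (16 residual degrees of freedom, common biological coefficient of variation of 0.0771). Tests were two-sided with Benjamini-Hochberg adjustment over all tested genes in each comparison. CPM uses the TMM-adjusted library size, and CPM per kilobase the exon length in the count files. The fit was tested on simulated data.

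The 35 genes and the wider gene lists, written from general knowledge, were chosen with earlier results of these data known. All 35 are accounted for by role, and up to 3 called genes with the smallest adjusted p per wider list and comparison could be named. Promoter windows came from RefSeq (GRCm38.p6), and gene positions from the GENCODE M21 annotation of GRCm38. Alternatives were DESeq2 1.42.0, its size factors, library totals alone, no filter, halved counts, the compared groups alone, a replicate block and leaving out each library. Counts were also summed for marker lists. Symbols were found for 31011 of the 31053 mouse features, and 9 transgenes were also left out of the named genes. Same-numbered libraries of different groups did not deviate together: over 36 pairs the correlation of their deviations from the group means ran from -0.06 to 0.05.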

Additional observations from a re-analysis of the deposited data

Results flagged for a closer look

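The effect of ULA culture on the log2 scale differed between Ifngr1-KO and sgNTC cells by the test of the difference itself for the genes below, with a positive value where the fold change was higher in Ifngr1-KO cells. With IFN-gamma the difference among hydrolases was 0.95 for Gla, 0.69 for Neu1, 0.43 for Ctsl, 0.40 for Tpp1, 0.35 for Ctsd and 0.30 for Ctsb. In PBS it was 0.82 for Gla, 0.64 for Neu1, 0.40 for Tpp1, 0.34 for Ctsl and 0.21 for Ctsb. Lamp1 differed by 0.51 with IFN-gamma and 0.57 in PBS, and Grn by 0.21 in PBS. The V-ATPase genes differed by 0.58 for Atp6v1h, 0.52 for Atp6v1a and 0.40 for Atp6v0d1 with IFN-gamma, and by 0.30 for Atp6v1h, 0.34 for Atp6v1a and 0.35 for Atp6v0d1 in PBS.

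Among transcription factors, Tfeb differed by 0.44 with IFN-gamma and 0.50 in PBS, and Mitf by -1.14 with IFN-gamma. Among autophagy genes, Sqstm1 differed by 0.48 with IFN-gamma and 0.26 in PBS, and Gabarap by 0.48 with IFN-gamma and 0.42 in PBS. The difference was below 0 for Ulk1 (-0.95 with IFN-gamma and -0.67 in PBS), Wipi1 (-0.38 and -0.57), Gabarapl1 (-0.23 and -0.25) and, in PBS, Map1lc3a (-0.42).

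Some of these calls were lost when a single library was left out. The Mitf difference was -0.77 (adjusted p = 0.104) without ULA sgNTC IFN-gamma replicate 1 and -0.93 (adjusted p = 0.0516) without adherent Ifngr1-KO IFN-gamma replicate 3. The Wipi1 difference with IFN-gamma lost its call without ULA Ifngr1-KO replicate 3, ULA sgNTC replicate 2 or adherent Ifngr1-KO replicate 1 (-0.28 to -0.27, adjusted p between 0.102 and 0.116). The Gabarapl1 difference lost its call without any 1 of 7 libraries with IFN-gamma (-0.21 to -0.16) and of 6 in PBS (-0.23 to -0.19). With IFN-gamma it also lost its call without the filter (-0.19, adjusted p = 0.116) and with the compared groups alone (-0.19, adjusted p = 0.0819). The Grn difference in PBS was lost without any 1 of 6 libraries (0.18 to 0.22) and with library totals alone (0.12, adjusted p = 0.281). For the Map1lc3a difference in PBS this held for any 1 of 10 libraries (-0.45 to -0.34).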

How the results depend on the processing

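Of 253 calls of single genes, 0 changed direction under any alternative. Calls lost numbered 18 with library totals alone, 5 without the filter, 3 with the compared groups alone, 2 under DESeq2, 2 with its size factors, 1 with halved counts and 1 with the replicate block, and 25 calls were lost without at least 1 library. The counts of called genes for culture, line and culture by line, with both directions together, stayed within 1.5 times their value under all alternatives. Split by direction, the counts of lower genes moved further with library totals alone, as given above for culture in sgNTC cells and for culture by line with IFN-gamma. With the replicate block, culture called 32 genes with IFN-gamma and 30 in PBS in Ifngr1-KO cells, 31 with IFN-gamma and 30 in PBS in sgNTC cells, and culture by line 17 with IFN-gamma and 16 in PBS. The block lost the Map1lc3a difference between the lines in PBS (-0.42, adjusted p = 0.0585). The labels do not say whether equal replicate numbers pair the samples. For IFN-gamma in ULA sgNTC cells, where 0 genes were called, DESeq2 and the test without the filter each called 1, and leaving out single libraries gave 0 to 1, with 1 without ULA sgNTC PBS replicate 1. For the difference between the lines in that response in ULA, also 0, DESeq2 and the test without the filter each called 2, the compared groups alone 1, and leaving out single libraries 0 to 1, with 1 without the same library. The cause was not tested. With library totals alone the differences between the lines in the culture effect fell short in PBS for Ctsb (0.11, adjusted p = 0.16), Grn (0.12, adjusted p = 0.281) and Sqstm1 (0.16, adjusted p = 0.0542), and were called below 0 for Hexa (-0.27), Gaa (-0.21), Npc2 (-0.23) and Atp6v0a1 (-0.22) with IFN-gamma and for Gaa (-0.22) and Becn1 (-0.25) in PBS. The Lipa difference with IFN-gamma (0.19, adjusted p = 0.0698) was called under DESeq2 (0.20, adjusted p = 0.0403), with the compared groups alone (0.23) and without any of 6 single libraries (0.22 to 0.26). Mitf between the lines in ULA with IFN-gamma was -0.67 (adjusted p = 0.05) without ULA sgNTC IFN-gamma replicate 1. Low counts limit Gpnmb and Mitf.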

Other observations

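Among tested genes with a RefSeq window, those with the letters CACGTG fell more often than they rose in ULA culture. This is a description of the 1214 tested genes whose window holds the letters. In Ifngr1-KO cells 25.8% of them rose and 40.2% fell with IFN-gamma, and 25.9% rose and 40.9% fell in PBS, against 30.6% rising and 31.7% falling with IFN-gamma and 30.8% and 32.2% in PBS among 9657 genes with a window without the letters. In sgNTC cells 26.6% rose and 45.4% fell with IFN-gamma, and 27.1% rose and 44.6% fell in PBS, against 33.6% and 32.6% with IFN-gamma and 33.6% and 32.8% in PBS without the letters. Their median log2 fold change lay between -0.15 and -0.11 over the 4 comparisons. The 10 lysosomal genes with the letters had medians of 0.34 to 0.47, on the other side of 0 from the median of all tested genes that share these letters. Of the 10, 2 were called lower in each treatment in sgNTC cells and 0 in Ifngr1-KO cells. Many transcription factors other than TFEB, TFE3 and MITF bind CACGTG, and no binding was measured.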
